A study of Mus musculus with 2 samples.

Results

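The 4 Hox clusters of the mouse are the subject here, described through the CTCF-bound regions listed in and around them in thymocytes. A region is a run of adjoining 25-bp windows that the authors placed in peaks. Of 51660 regions on the autosomes and the X, 38 had their midpoint in 1 of 4 windows (mm9) drawn around the clusters. The windows were 6:52050000-52350000 for Hoxa, 11:96000000-96300000 for Hoxb, 15:102700000-102950000 for Hoxc and 2:74400000-74700000 for Hoxd. They held 9, 14, 5 and 10 regions in that order.

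The regions come from 1 chromatin immunoprecipitation library sequenced with an anti-CTCF antibody, from CD4+CD8+ (DP) thymocytes of C57BL/6 mice aged 4 to 8 weeks. The mice were Rag1 -/- and carried a rearranged T cell receptor beta transgene (TCRbeta), so both the CTCF library and the input library named in the labels share this genotype. The labels do not give the number of mice, and the input library was not analysed here. The cells were crosslinked in 1% formaldehyde over 10 minutes. The file holds positions only, with no height, read count or score. The depth is therefore unknown, the width of a region is the only value it has, and a position that is not listed cannot be read as unbound. The labelled cell type cannot be checked from positions of a DNA-binding protein. With 1 library there was no replicate and no test, and stretches of DNA are compared only within it.

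Hox genes encode homeodomain transcription factors that give cells their position along the body axis. In each cluster the genes are numbered along the DNA, from Hox13 at one end, which acts in the posterior body, to the low-numbered genes at the other, which act more anteriorly. CTCF recognises a long DNA motif through its zinc fingers and, together with the ring-shaped cohesin complex, holds the bases of chromatin loops. In Hox clusters of other cell types CTCF sites are known as borders between active chromatin and chromatin silenced by Polycomb proteins.

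By the RefSeq gene order (GRCm38), the clusters hold 39 protein-coding Hox genes, 11 in Hoxa, 10 in Hoxb, 9 in Hoxc and 9 in Hoxd. No other protein-coding gene starts between them. Hoxa13 is at the high-coordinate end of its cluster, and Hoxb13, Hoxc13 and Hoxd13 are at the low-coordinate end of theirs. Hoxa lies between Skap2, an adaptor protein gene, and Evx1, which encodes a homeodomain factor of the even-skipped family. Hoxb is flanked by Ttll6 on the Hoxb13 side and by Skap1, an adaptor of T cell receptor signalling, on the Hoxb1 side. Hoxc lies between Calcoco1 and Smug1, a DNA repair glycosylase gene. Hoxd lies between Evx2, the second even-skipped homologue, and Mtx2, a gene of mitochondrial protein import. The clusters also hold 6 microRNA genes, among them Mir196b in Hoxa and Mir10b in Hoxd.

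Each window was divided into the gene array and the 2 margins on its sides. The array bounds were rounded to 10 kb from general knowledge of mm9, since no mm9 annotation was used, so a region is placed on a stretch of DNA and not in an exon, intron or promoter. The arrays were 120 kb in Hoxa (52100000 to 52220000), 180 kb in Hoxb (96050000 to 96230000), 120 kb in Hoxc (102750000 to 102870000) and 110 kb in Hoxd (74500000 to 74610000). Outside each window, outer flanks of 500 kb on either side were used for comparison. The high-coordinate flank of Hoxc ended after 433 kb, at the last position listed on chromosome 15.

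No mm9 sequence was used here, so the letters under the regions cannot be shown. The RefSeq promoter table (GRCm38, 250 bases before to 50 after each gene's start) held 24 promoters of 22 of the 39 Hox genes, 9 in Hoxa, 3 in Hoxb, 1 in Hoxc and 9 in Hoxd. They were searched on both strands for AGGGGGC, core letters of the CTCF consensus. It was found in 2 of 24 Hox promoters (8.33%), those of Hoxd13 and Hoxa10, compared with 10.6% of all 32851 promoters. A further form of the core, AGGTGGC, was found in 1 of 24 (4.17%), the promoter of Hoxa11, compared with 6.15% of all. Other variants of the core letters were not searched. The matches are shown because they are the only Hox promoters of the table that hold either core. Capitals mark the core, which reads as GCCCCCT where it lies on the opposite strand.
Hoxd13: ggcgggagacgGCCCCCTgaccgtcccagg
Hoxd13, next match: gaccgtcccagGCCCCCTcccaacctgaac
Hoxa10: tggggggcgaaAGGGGGCgggcagggaagc
Hoxa11: tgcttcccctgAGGTGGCtacaaagaaagg
A match of 7 letters is a description and no bound site. These promoters were not placed on the regions of the file, whose build differs.

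The regions of each cluster formed a row on the array that stopped well short of the end with the low-numbered genes in Hoxa, Hoxb and Hoxd. Of the 25 regions in the 4 arrays, 19 lay on the Hox13 side of the array's midpoint. This split was chosen after the positions were seen. All 5 array regions of Hoxa and all 7 of Hoxd lay on that side, as did 6 of 10 in Hoxb and 1 of 3 in Hoxc. The farthest regions of Hoxa and Hoxd lay close to midpoints that rest on bounds rounded to 10 kb. With the low-numbered bound of each array moved inwards by 10 kb, 3 of 5 regions in Hoxa, 6 of 7 in Hoxd and 16 of 25 in all lay on the Hox13 side. Measured from the Hox13-side bound, the farthest region of the array lay at 49.0% of the array length in Hoxa, 68.3% in Hoxb, 78.4% in Hoxc and 49.1% in Hoxd. The map of regions along the clusters shows these positions.

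**Figure D1:**
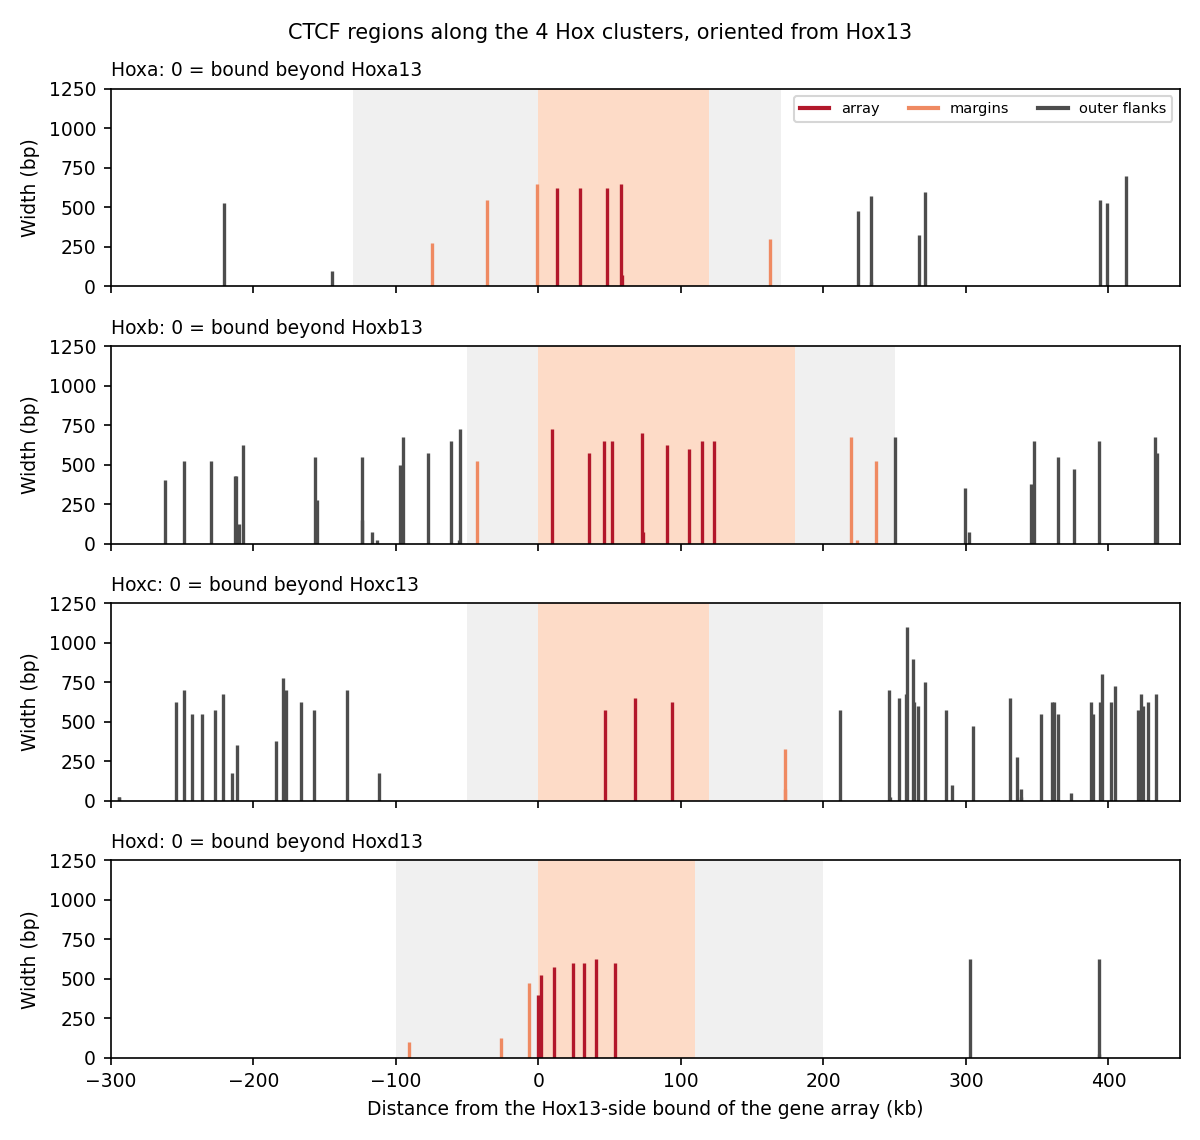
CTCF regions in and next to the 4 Hox windows, oriented so that Hox13 is on the left; each vertical line is a region, its height the width in bp, and the x axis gives the distance in kb from the Hox13-side bound of the array. Orange shading marks the array, grey shading the margins, and only the nearer part of the outer flanks is drawn. At the low-numbered end, 61.2 kb of the Hoxa array, 56.7 kb of Hoxb, 25.6 kb of Hoxc and 55.7 kb of Hoxd hold no region.

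In Hoxa, the array held 5 regions of 75, 650, 625, 625 and 625 bp. The lowest in coordinate, 75 bp (52161196 to 52161270), lay 100 bp from the next, 650 bp wide (52161371 to 52162020), 58.3 kb from the Hoxa13-side bound by its midpoint. The others followed towards Hoxa13 at 52171496 to 52172120, 52190221 to 52190845 and 52206796 to 52207420, each 625 bp wide. The 4 wide regions of the array therefore differed by at most one 25-bp window. Just beyond the rounded bound lay a further region of 650 bp (52220346 to 52220995), which continued the row, so that 6 regions shared 59.8 kb with distances of 0.1 to 18.1 kb. Towards Evx1 the margin held 2 more, of 550 bp (52255746 to 52256295) and 275 bp (52294171 to 52294445). Towards Skap2 the margin held 1 region, of 300 bp (52057496 to 52057795). The 61.2 kb of the array up to its low-coordinate bound held none.

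In Hoxb, the longest array, 10 regions extended over 113.75 kb. Nearest Hoxb13 lay the widest member of all 4 clusters, 725 bp (96059596 to 96060320), at 10.0 kb from the bound. It was followed by one of 575 bp (96085021 to 96085595) and by a pair of 650 bp each, 4.65 kb apart (96096096 to 96096745 and 96101396 to 96102045). A region of 700 bp (96122721 to 96123420) was followed after 50 bp by one of 75 bp (96123471 to 96123545). Further in lay a region of 625 bp (96139921 to 96140545) and then 3 regions 7.825 and 7.9 kb apart. Of these the first was 600 bp wide (96155721 to 96156320) and both others 650 bp (96164221 to 96164870 and 96172696 to 96173345). Apart from the 75-bp region, widths in this array thus ran from 575 to 725 bp. The margins held 525 bp (96006796 to 96007320) on the Hoxb13 side, and 675 bp (96268871 to 96269545), 25 bp (96273446 to 96273470) and 525 bp (96286396 to 96286920) on the Hoxb1 side. A region of 675 bp (96299896 to 96300570) crossed the upper edge of the window and, with its midpoint outside, was not counted.

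In Hoxc, the array held the fewest regions. Nearest Hoxc13 was one of 575 bp (102796730 to 102797304). A second of 650 bp began at 102817680 and ended at 102818329, and the last, of 625 bp, spanned 102843780 to 102844404. Their midpoints were at 47.0, 68.0 and 94.1 kb from the Hoxc13-side bound. Unlike in the other clusters, the Hoxc13 end was empty: no region was listed in the first 46.7 kb of the array or in the margin before it. On the Hoxc4 side the margin held a region of 75 bp (102922855 to 102922929) and, after 25 bp, one of 325 bp (102922955 to 102923279).

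In Hoxd, 8 regions followed one another at short distances at the Hoxd13 end, with the first in the margin towards Evx2. Their widths were, from Evx2 to the inner array, 475, 400, 525, 575, 600, 600, 625 and 600 bp. They ran from 74493374 to 74554273, a stretch of 60.9 kb, with distances of 1.2 to 12.95 kb and a median of 7.525 kb. The closest pair, 400 bp (74499924 to 74500323) and 525 bp (74501524 to 74502048), lay next to the rounded Hoxd13-side bound. The widest of the window was 625 bp (74540099 to 74540723). The margin before them held 2 narrow regions of 100 bp (74409499 to 74409598) and 125 bp (74473574 to 74473698). The last 55.7 kb of the array, up to its Hoxd1-side bound, and the margin beyond held none.

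Wide regions made up most of the arrays. Of the 25 array regions, 22 were at least 525 bp wide, the median of the genome, a width that 51.8% of all regions reach. The 13 margin regions included 5 of that width. Within 50 bp of the most frequent width of 625 bp, that is 575 to 675 bp, lay 19 array and 2 margin regions, against 35.3% of all regions. The median width was 625 bp in the arrays (quartiles 575 and 650 bp), 325 bp in the margins (125 and 525 bp), 550 bp in the outer flanks (275 and 650 bp) and 525 bp in the genome (225 and 625 bp). The quartiles of the arrays were thus closer together than those of the other sets.

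The same order of array above margin held in each cluster. Medians were 625 bp in the Hoxa array and 425 bp in its margins, 650 and 525 bp in Hoxb, 625 and 200 bp in Hoxc, and 600 and 125 bp in Hoxd. The margin medians rest on 4, 4, 2 and 3 regions, and the widths of array and margin regions overlapped in Hoxa, Hoxb and Hoxd. In Hoxc the array widths, 575 to 650 bp, lay above both margin widths. Those 2 margin regions lay 25 bp apart and together spanned 0.425 kb. Over all 4 clusters, the margin median was 450 bp with regions joined across at most 100 bp. It was 475 bp with regions of at most 75 bp left out. As listed, none of the 38 members was wider than 725 bp. The outer flanks, with 193 regions, reached 1175 bp beside Hoxb and 1100 bp beside Hoxc. Beside Hoxa and Hoxd they reached only 700 and 675 bp. Joined across at most 100 bp, the widest member was 825 bp. The share of all regions wider than 725 bp was not computed. The plot of widths by zone shows the narrow spread in the arrays.

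**Figure D2:**
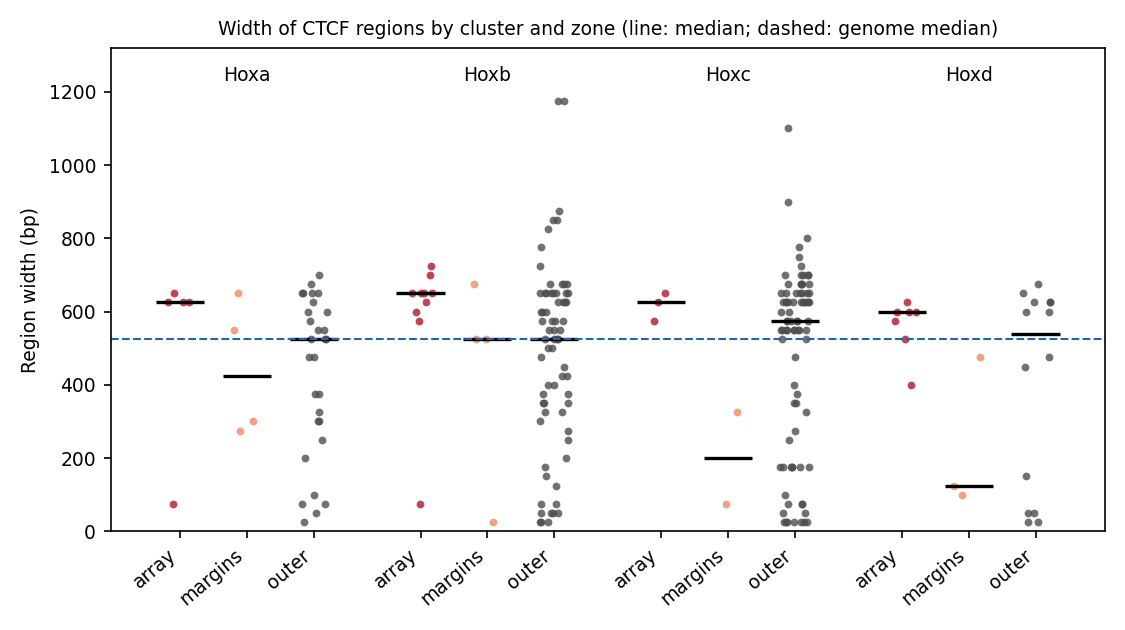
Width in bp (y axis) of each CTCF region (points) in the array, the margins and the outer flanks of the 4 clusters (x axis), with the median of each set as a black line and the genome median of 525 bp as a dashed line. The array medians, 600 to 650 bp, lie above the dashed line in all 4 clusters, and the points of the outer flanks spread over 25 to 1175 bp.

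Of the 38 regions, 4 were at most 75 bp wide, compared with 14.1% of all regions. Of these 4, 3 had another region within 100 bp, the pairs in the Hoxa array, in the Hoxb array and at the Hoxc4 side, and the fourth was the 25-bp region of the Hoxb margin. In the genome 52.2% of such short regions had a neighbour that near. Joined across at most 100 bp, the windows held 35 regions. The arrays then held 23, of 400 to 825 bp, and 22 of them were at least 525 bp wide. The exception was the 400-bp region at the Hoxd13 end. The share of all regions that reach 525 bp after the same joining was not computed.

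The outer flanks covered a wider range of densities than the arrays. The arrays held 41.7 regions per Mb in Hoxa (exact 95% Poisson interval 13.5 to 97.2), 55.6 in Hoxb (26.6 to 102), 25 in Hoxc (5.16 to 73.1) and 63.6 in Hoxd (25.6 to 131). These intervals, which cover counting error only and treat regions as independent, all overlapped. They rest on 3 to 10 regions per array, so the overlap does not show that the array densities were alike. The outer flanks held 29.0 per Mb around Hoxa (19.4 to 41.6, 29 regions), 69.0 around Hoxb (53.7 to 87.3, 69 regions), 86.8 around Hoxc (68.9 to 108, 81 regions) and 14 around Hoxd (7.65 to 23.5, 14 regions). Here the intervals of Hoxa and Hoxd did not overlap those of Hoxb and Hoxc. The genome held 19.6 per Mb.

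At the reported setting, with outer flanks of 500 kb and regions counted as listed, the array was denser than its own flanks in Hoxd and sparser in Hoxc. The ratio of densities was 4.55 in Hoxd (exact 95% interval 1.55 to 12.03) and 0.288 in Hoxc (0.0582 to 0.872). In Hoxa it was 1.44 (0.434 to 3.75) and in Hoxb 0.805 (0.370 to 1.57), intervals that include equal density. The Hoxc array rests on 3 regions. Intervals were computed for the reported setting alone, so the exclusion of equal density in Hoxc and Hoxd is shown for that setting only. With outer flanks of 1000 kb the ratio of Hoxd was 2.40. With regions joined across up to 1000 bp the ratio was 0.364 in Hoxc and 5.79 in Hoxd. With regions of at least 525 bp alone the ratios were 2.22 in Hoxa, 1.32 in Hoxb, on the other side of equal density, 0.440 in Hoxc and 7.79 in Hoxd. Between array and margins the ratio was 1.88 in Hoxa (0.404 to 9.45), 1.67 in Hoxb (0.481 to 7.28), 1.63 in Hoxc (0.186 to 19.5) and 4.03 in Hoxd (0.920 to 24.2), so that the array had the higher density in each, with intervals that all include 1.

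**Figure D3:**
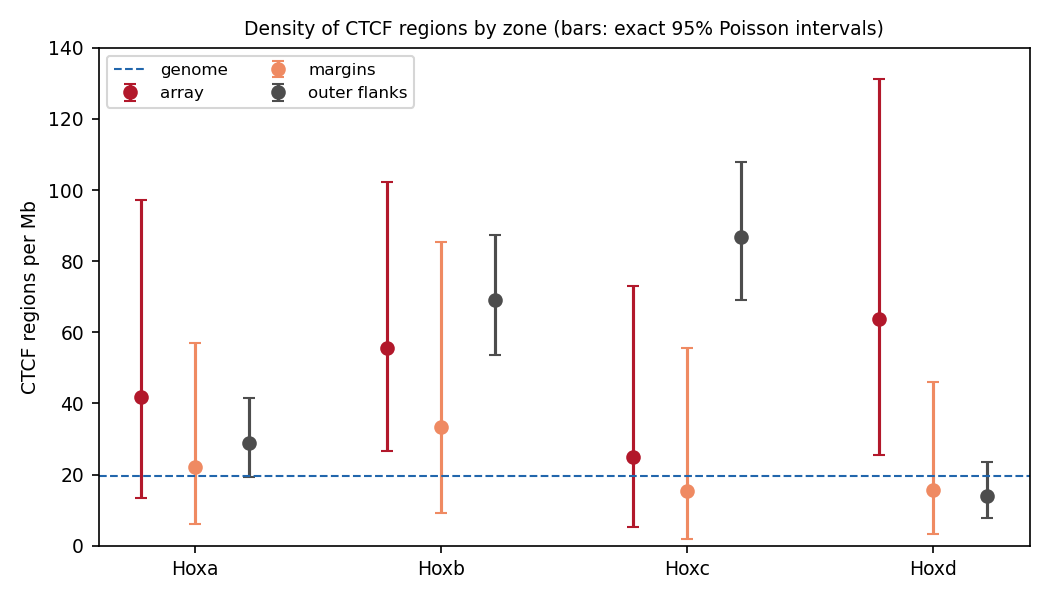
CTCF regions per Mb (y axis) in the array, the margins and the outer flanks of each cluster (x axis), with exact 95% Poisson intervals as bars and the genome density of 19.6 per Mb as a dashed line. The outer flanks run from 14 per Mb around Hoxd to 86.8 around Hoxc. The array intervals, which rest on only 3 to 10 regions each, all overlap.

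The 2 outer flanks of Hoxd differed in the number of regions listed. On the Hoxd13 side the flank held 3 regions, 6.00 per Mb (1.24 to 17.5), all narrower than 525 bp. On the Hoxd1 side it held 11, 22 per Mb (10.98 to 39.4), of which 7 were at least 525 bp wide and 4 at most 75 bp. The ratio between the sides was 3.67 (0.969 to 20.5), an interval that includes equal density. The flanks of Hoxb held 35 and 34 regions, those of Hoxa 12 on the Skap2 side and 17 on the Hoxa13 side.

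Set beside fixed stretches of the same length along all chromosomes, the windows held more regions than the median stretch. The median was 3 regions in stretches of 300 kb and 2 in stretches of 250 kb. Stretches without any listed region, which lower these medians, made up 30.9% of those of 300 kb and 33.3% of those of 250 kb. At least as many regions as in the window were found in 27.7% of stretches for Hoxa, 14.5% for Hoxb, 38.2% for Hoxc and 24.8% for Hoxd. For the arrays the shares were 20.3%, 11.4%, 33.0% and 9.93%. Chromosome 11, which carries Hoxb, is crowded: among its own stretches 32.8% held as many regions as the Hoxb window and 26.3% as many as the array.

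Neighbouring regions of an array lay at most 25.45 kb apart. The median distance was 12.7 kb in the Hoxa array (4 distances, 0.1 to 18.1 kb), 10.5 kb in Hoxb (9 distances, 0.05 to 24.7 kb), 22.9 kb in Hoxc (2 distances, 20.375 and 25.45 kb) and 8.20 kb in Hoxd (6 distances, 1.2 to 12.95 kb). Over all 34 distances within the windows the median was 12.9 kb, near the 13.1 kb of the genome. At most 10 kb separated 13 of the 34 pairs, against 43.8% of neighbours in the genome. Within the arrays, 0 of 21 distances reached 50 kb, whereas 18.6% of those in the genome did. The array count covers only distances with both regions inside an array, a limit that the genome share does not have, so the 2 are not alike. It leaves out stretches that run across an array bound. Of the longest of these, 61.2 kb in Hoxa, 56.7 kb in Hoxb, 46.7 kb in Hoxc and 55.7 kb in Hoxd lay in the array. In Hoxc a second such stretch, on the Hoxc4 side, took a further 25.6 kb of the array. In the windows as a whole 5 of 34 distances reached 50 kb, each with a margin region at one or both ends.

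**Figure D4:**
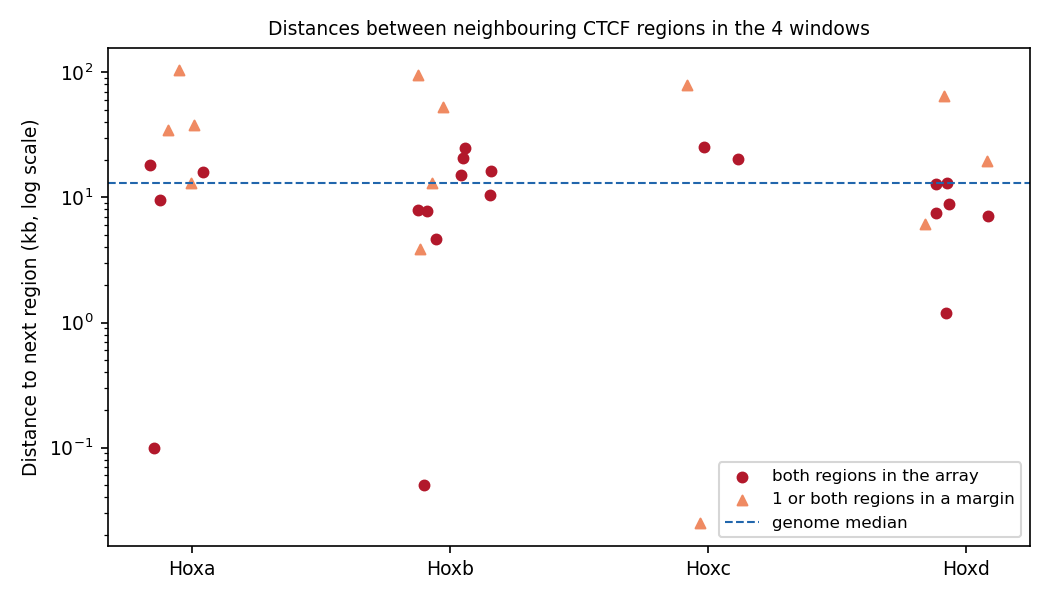
Distance in kb to the next CTCF region (y axis, log scale) for neighbours within each Hox window (x axis), with circles where both regions lie in the array and triangles where 1 or both lie in a margin; the dashed line is the genome median of 13.1 kb. Distances within arrays stay at or under 25.45 kb, and those of 50 kb or more all involve a margin region.

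Long stretches without a listed region bounded the rows. In Hoxa, 103.4 kb (52057796 to 52161195) separated the 300-bp region of the low-coordinate margin from the first array region, and 61.2 kb of it lay in the array. In Hoxb, 95.525 kb (96173346 to 96268870) lay between the last array region of 650 bp and the margin region of 675 bp, with 56.7 kb in the array. In Hoxd, 248 kb (74554274 to 74802273) followed the last array region, covered 55.7 kb of the array and ran past the window to a region of 625 bp. Of all distances in the genome, 8.38% were at least as long as that of Hoxa, 9.16% as that of Hoxb and 3.09% as that of Hoxd. These stretches, and those described next, were picked as the longest among the several distances at each window. The shares are over single distances and do not allow for that choice.

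On the Hox13 side, long stretches lay at different places. Before the first region of the Hoxd window lay 270.8 kb without a region (74138699 to 74409498), the longest stretch beside any of the 4 windows, which 2.77% of the distances in the genome reach. In Hoxc, 158.65 kb (102638080 to 102796729) preceded the first array region, the longest stretch of that cluster, with 46.7 kb in the array (5.09% of distances are at least as long). Its Hoxc4 side had a shorter one of 78.45 kb (102844405 to 102922854), with 25.6 kb in the array. Beyond the last region on the Hoxa13 side, the Hoxa window was followed by 70.2 kb without one (52294446 to 52364645). Between the outermost array region on the Hox13 side and the next region in the margin, the distance was 12.925 kb in Hoxa, 52.275 kb in Hoxb and 6.075 kb in Hoxd. The 10 regions of Hoxd thus lay between the 2 longest stretches found beside the 4 windows.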

How the data were processed

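CTCF binding was measured by ChIP-seq in 1 library. The submitters' processing notes name Bowtie and the build mm9. Not given in the sources used here are the version of Bowtie, how peaks were called, at which threshold, and whether the input entered. The authors deposited 912174 windows of 25 bp as chromosome, start and end, with no other value. Starts were read as counted from 0 and are printed counted from 1. Adjoining windows were joined, and 1 mitochondrial region was left out. A region belonged to a window, array, margin or flank by its midpoint, and distances run from the end of a region to the start of the next. Poisson intervals and conditional intervals of ratios are exact. Stretches of equal length were laid end to end from the first base of each chromosome.

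The members, array bounds and lists were chosen with earlier results of these data known. All members are given; genes named are the Hox genes, their neighbours and 2 microRNA genes. On simulated windows, 20 of 20 zones came back with the number and median width they were made with. RefSeq tables (GRCm38) gave names, gene order and promoter letters only. Alternatives joined regions across gaps of up to 100, 500 or 1000 bp, dropped regions up to 75 bp or under 525 bp, counted any overlap, moved array bounds by 10 kb, changed flanks to 300 or 1000 kb, and changed the stretches. Tools were SciPy 1.17.1, pandas 2.3.3 and NumPy 2.4.6 under Python 3.11.15, with plots from matplotlib 3.10.9.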

Additional observations from a re-analysis of the deposited data

How the results depend on the processing

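Of 172 values under alternative settings, 160 were within 1.5 times the reported value and 12 were not. Joining regions, leaving out those of at most 75 bp, counting any overlap and moving both array bounds by 10 kb gave no value beyond that in the results they were run for. The Hox13 side of the array midpoint held 76% of array regions. Moving 1 bound by 10 kb, chosen after seeing the data because moving both leaves the midpoint in place, gave 64% to 80%, and 0 to 2 regions of Hoxa and 0 to 1 of Hoxd beyond the midpoint. The median width of the arrays was 625 bp in each setting run for it, while that of the margins ran from 300 to 475 bp. With regions of at least 525 bp alone, the Hoxc and Hoxd windows held 3 and 6 regions, the density ratio of array to outer flanks was 2.22 in Hoxa, 1.32 in Hoxb, 0.440 in Hoxc and 7.79 in Hoxd, and the longest stretch without a region was 183.9 kb in Hoxa and 697 kb in Hoxd, since fewer regions remained. Outer flanks of 1000 kb gave a ratio of 2.40 in Hoxd. No interval is given for the density ratios under alternative settings. Stretches of the same chromosome gave shares of 32.8% (window) and 26.3% (array) in Hoxb. The core AGGTGGC was in 4.17% of Hox promoters. The cause of these changes, other than fewer regions, was not tested. No mm9 annotation, height or depth was used, so neither gene positions nor weak binding could be resolved.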
